A study of Mus musculus with 2 samples.

Results

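The genes described here make fatty acids, place double bonds in them and lengthen them. They were chosen by symbol, from a list of known enzymes and not by a rule on their measured values, though earlier results of these data were known. They comprise Acaca and Fasn for synthesis, Scd1, Scd2, Scd4, Fads1 and Fads2 for desaturation, and Elovl1, Elovl5 and Elovl6 for elongation. All 10 were found, among 22882 gene symbols in all, and each stood on 1 row. The RNA came from whole hearts of 23 day old C57BL6/J mice of mixed sex. The control group (Med1fl/fl) carried floxed Med1 alleles, and the csMed1-/- group carried the same floxed alleles together with a Cre transgene driven by the α-myosin heavy chain promoter, which is active in cardiomyocytes from late gestation on. Med1 encodes a subunit of Mediator, the complex that links transcription factors to RNA polymerase II, and other cells of the heart keep the gene in this model. RNA of 5 hearts was pooled within each genotype and 1 library was sequenced per pool, so there is no replicate spread for any value, and no difference given here was tested.

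In the making of fatty acids, acetyl-CoA carboxylase first forms malonyl-CoA, and fatty acid synthase uses it to build palmitate in the cytosol. Palmitate is then lengthened in the endoplasmic reticulum by a cycle of enzymes whose entry step is catalysed by an ELOVL elongase. The stearoyl-CoA desaturases introduce the double bond of oleate and palmitoleate, and the front-end desaturases FADS1 and FADS2 act in the production of highly unsaturated fatty acids. The heart burns fatty acids far more than it makes them. In heart, malonyl-CoA is known mainly as an inhibitor of fatty acid entry into mitochondria.

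Scd4, a stearoyl-CoA desaturase known for its expression in heart, differed most among the 10 genes. The mouse Scd genes lie together on chromosome 19 in the order Scd3, Scd2, Scd4 and Scd1, with 26227 bases between Scd2 and Scd4 and 47711 between Scd4 and Scd1. Their sequences are shown because reads were only 50 bases long, and a read from a stretch that the copies share cannot be given to a single gene. The reference coding sequence of Scd4 was 84.6% identical to that of Scd1, 83.8% to that of Scd2 and 84.6% to that of Scd3, and Scd1 and Scd2 were 90.3% identical to each other (GENCODE M21, GRCm38). Of 707 aligned coding windows of 50 bases within exons, the window least alike lay in exon 3. It differed among the genes at 28 positions, marked in capitals, and Scd4 differed there from Scd1 at 14 positions, from Scd2 at 18 and from Scd3 at 21. The sequences are given 5′ to 3′ on the strand of the gene, from chr19:44403246-44403295 (minus strand) for Scd1, chr19:44298040-44298089 (plus strand) for Scd2, chr19:44234223-44234272 (plus strand) for Scd3 and chr19:44337501-44337550 (plus strand) for Scd4.
Scd1: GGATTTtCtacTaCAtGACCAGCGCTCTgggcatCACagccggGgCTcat
Scd2: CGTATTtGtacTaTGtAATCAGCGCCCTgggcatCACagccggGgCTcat
Scd3: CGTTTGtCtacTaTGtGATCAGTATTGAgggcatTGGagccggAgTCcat
Scd4: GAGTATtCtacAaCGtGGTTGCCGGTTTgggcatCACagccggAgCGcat

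The window most alike lay in exon 4 and was the same in all 4 genes, at chr19:44338943-44338992 on the plus strand in Scd4.
Scd1 to Scd4: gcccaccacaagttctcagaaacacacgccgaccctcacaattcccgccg

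Such stretches were short in total. Words of 50 bases were taken at every position of the longest coding transcript of each gene. Of 3257 such words of Scd4, 206 (6.32%) also occurred in a transcript of another gene, 112 of them (3.44%) in another Scd gene. The share of words found in any other gene was 4.66% for Scd1 and 4.01% for Scd2. How the authors treated reads with several matches is not stated. Among the other members, 52.6% of the words of Acaca were shared with Gm5182, a gene that is not among the rows analysed here, and 4.59% of the words of Elovl6 occurred in other genes. Fads2 shared 5 of 3101 words with Fads3. Fasn, Fads1, Elovl1 and Elovl5 shared none.

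Values are FPKM, a measure that the authors computed and that divides the fragments of a transcript by its length and by the size of the library, so levels of different genes can be compared within a library. A change is the plain ratio of csMed1-/- to Med1fl/fl FPKM, and log2 ratios below 0 mean a lower value in csMed1-/-. A gene was counted if neither value was 0 and at least 1 of them reached 1 FPKM, which 10489 genes did. Of these, 1423 (13.6%) were higher by more than 2-fold and 1886 (18.0%) were lower by more than 2-fold. With both libraries scaled to the same summed FPKM the balance turned, to 1689 (16.1%) higher and 1617 (15.4%) lower. Med1 was 3.38 FPKM in Med1fl/fl and 0.412 FPKM in csMed1-/- (log2 ratio -3.04). The libraries summed to 780366 FPKM in Med1fl/fl and to 716365 FPKM in csMed1-/-. Steps among low values put 1 read on 1 kilobase of transcript at about 0.014 FPKM in Med1fl/fl and 0.011 FPKM in csMed1-/-. On a longer transcript 1 read gives a proportionally lower FPKM. The csMed1-/- library was thus about 1.3 times as deep, though this estimate is rough. By that estimate 140 to 14000 reads stood behind each member's value, except Elovl6.

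Of the 10 genes, 9 passed the filter. Of these, 1 (11.1%) was higher by more than 2-fold, Elovl1, and 2 (22.2%) were lower by more than 2-fold, Scd2 and Scd4, against 13.6% and 18.0% of all genes. These shares are near those of all genes and are no result about the list. The other 6 were within 2-fold. In all, 3 of the 9 were higher and 6 were lower in csMed1-/-. Their median log2 ratio was -0.50 (quartiles -0.77 and 0.26), and that of all 10489 genes was -0.0709 (quartiles -0.718 and 0.546). In bulk tissue, fewer cells of a type and less RNA per cell cannot be told apart.

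**Figure D1:**
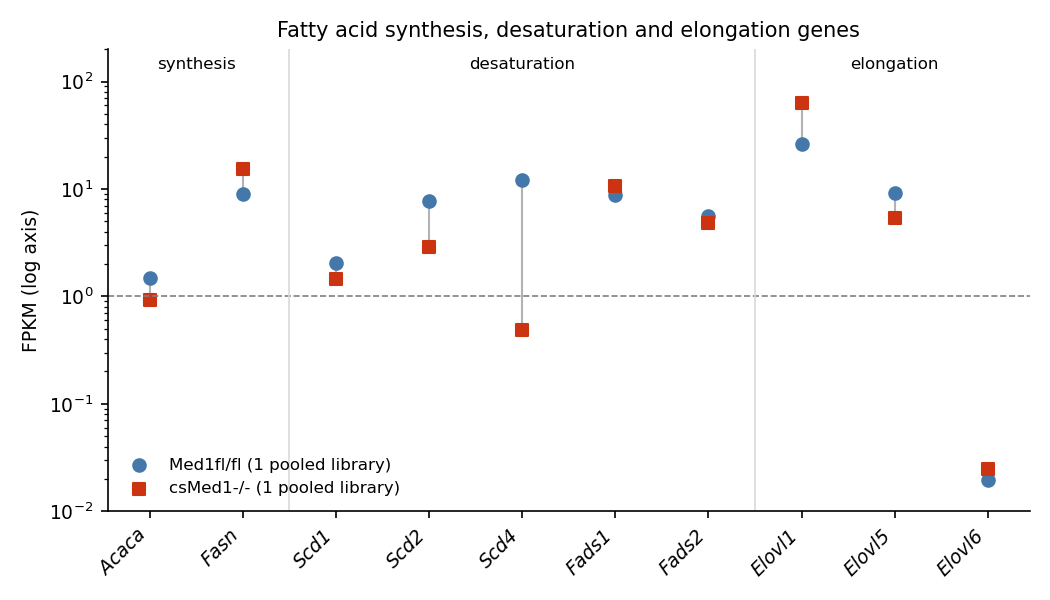
FPKM of each of the 10 genes on a log axis, with 1 point per pooled library (Med1fl/fl and csMed1-/-) and a line joining the pair. Scd4 lies at 12.1 FPKM in Med1fl/fl and 0.489 FPKM in csMed1-/-, and Elovl1 at 26.3 and 63.1 FPKM, while both points of Elovl6 lie far under 1 FPKM.

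Scd4 (chr19:44333092-44346743, plus strand) was 12.1 FPKM in Med1fl/fl and 0.489 FPKM in csMed1-/-. It was thus 24.8-fold lower (log2 ratio -4.63), and of 10489 genes only 45 had a lower ratio. Scd4 passed the filter through its Med1fl/fl value alone, and with 1 FPKM required in both libraries it did not pass. In the Med1fl/fl heart it was the highest of the desaturases among the members and exceeded 80.7% of all gene symbols, and in the csMed1-/- heart it exceeded 51.6%. About 2700 reads stood behind the Med1fl/fl value and about 140 behind the csMed1-/- value.

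Scd2 (chr19:44293674-44306864, plus strand), a desaturase with wide expression in embryonic tissues and brain, was 7.66 FPKM in Med1fl/fl and 2.88 FPKM in csMed1-/-. It was 2.66-fold lower (log2 ratio -1.41). Scd1 (chr19:44394455-44407879, minus strand), the main form in liver and fat, was 2.05 FPKM in Med1fl/fl and 1.45 FPKM in csMed1-/-, within 2-fold (log2 ratio -0.50). The lower value thus stood in csMed1-/- for all 3 of these genes, but the sizes were unequal.

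The family as a whole, with Scd3 (0.271 and 0.102 FPKM) added, summed to 22.1 FPKM in Med1fl/fl and to 4.91 FPKM in csMed1-/- (log2 ratio -2.17). Scd4 made up 54.8% of that sum in Med1fl/fl and 9.96% in csMed1-/-. Scd2 went from 34.7% to 58.5% of the sum and Scd1 from 9.27% to 29.4%. Without Scd4 the sum was 9.99 FPKM in Med1fl/fl and 4.42 FPKM in csMed1-/- (log2 ratio -1.17). The most abundant stearoyl-CoA desaturase transcript was therefore Scd4 in the Med1fl/fl library and Scd2 in the csMed1-/- library.

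**Figure D2:**
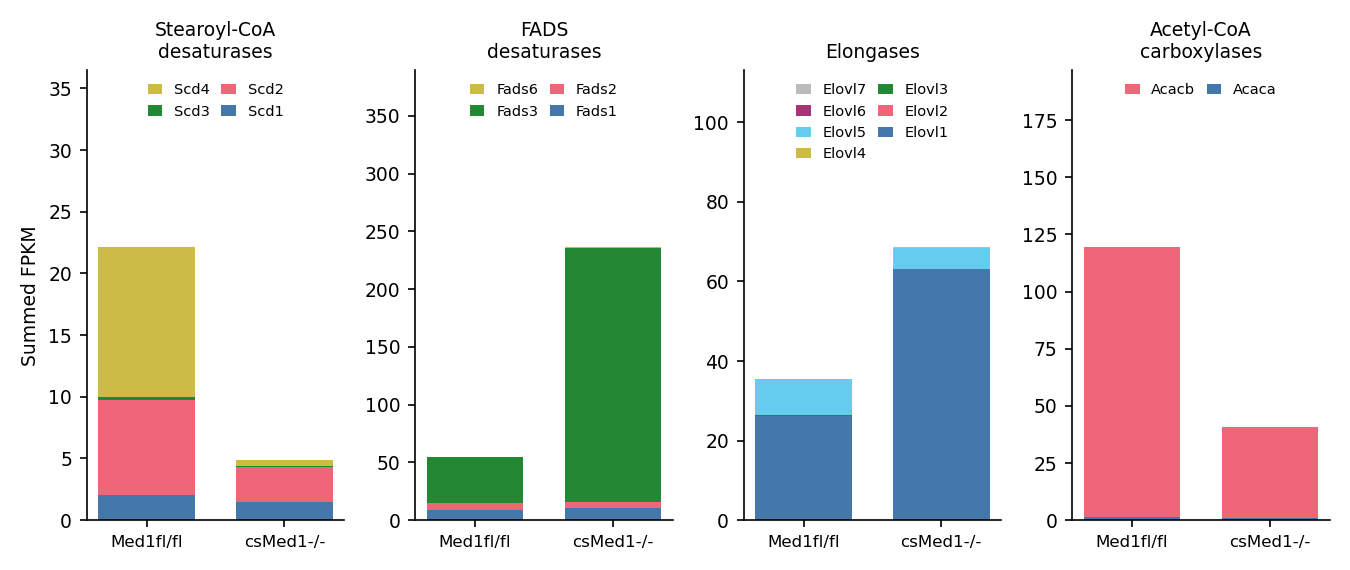
Stacked bars of FPKM by family, with 1 bar per pooled library and 1 colour per gene. The Scd bar reaches 22.1 FPKM in Med1fl/fl and 4.91 FPKM in csMed1-/- with a far smaller Scd4 segment, and the FADS bar reaches 54.9 and 236.1 FPKM, most of it Fads3.

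The front-end desaturases differed little. Fads1 (chr19:10182888-10196877, plus strand), which acts late in the making of arachidonic acid, was 8.87 FPKM in Med1fl/fl and 10.6 FPKM in csMed1-/- (log2 ratio 0.26). Fads2 (chr19:10062765-10101746, minus strand), which catalyses the entry step of that path, was 5.65 FPKM in Med1fl/fl and 4.78 FPKM in csMed1-/- (log2 ratio -0.24). Their neighbour in the family, Fads3, was 40.2 FPKM in Med1fl/fl and 220.3 FPKM in csMed1-/-, 5.48-fold higher. With it the FADS family summed to 54.9 FPKM and 236.1 FPKM, and Fads3 made up 73.2% and 93.3% of the sum.

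Among the elongases, Elovl1 (chr4:118428093-118432953, plus strand), which lengthens saturated and monounsaturated very long chains, had the highest level of the 10 genes in both libraries. It was 26.3 FPKM in Med1fl/fl and 63.1 FPKM in csMed1-/-, 2.40-fold higher (log2 ratio 1.26). A ratio higher than that was found for 1014 of the 10489 genes (9.67%). At its end the gene shares 53 bases with Cdc20 on the opposite strand (2.93% of its transcribed bases), and whether the counting used strand is not stated.

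Elovl5 (chr9:77917364-77984519, plus strand), which lengthens polyunsaturated chains, was 9.08 FPKM in Med1fl/fl and 5.34 FPKM in csMed1-/- (log2 ratio -0.77). Elovl6 (chr3:129532355-129638495, plus strand), which turns palmitate into stearate, was 0.0195 FPKM in Med1fl/fl and 0.0246 FPKM in csMed1-/-. Such values correspond to about 7 and 13 reads, so no direction is given. The ELOVL family summed to 35.5 FPKM in Med1fl/fl and to 68.5 FPKM in csMed1-/- (log2 ratio 0.95). Elovl1 took 74.1% of the sum in Med1fl/fl and 92.1% in csMed1-/-, and Elovl5 took 25.6% and 7.79%. The levels of Elovl1 and Elovl5 thus lay farther apart in csMed1-/- than in Med1fl/fl.

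For synthesis, Fasn (chr11:120805846-120824547, minus strand), the synthase that makes palmitate, was 9.06 FPKM in Med1fl/fl and 15.3 FPKM in csMed1-/- (log2 ratio 0.76). Acaca (chr11:84129672-84401651, plus strand), the cytosolic acetyl-CoA carboxylase, was 1.495 FPKM in Med1fl/fl and 0.922 FPKM in csMed1-/- (log2 ratio -0.70). Both were within 2-fold, in opposite directions, and the value of Acaca is uncertain for the 52.6% of its words that Gm5182 shares. Acaca also passed the filter through its Med1fl/fl value alone. The other carboxylase gene, Acacb, whose malonyl-CoA restrains fatty acid entry into mitochondria, was 117.8 FPKM in Med1fl/fl and 39.7 FPKM in csMed1-/- (log2 ratio -1.57). Acacb thus made up 98.7% of carboxylase FPKM in Med1fl/fl and 97.7% in csMed1-/-, and the sum of both went from 119.3 to 40.6 FPKM.

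**Figure D3:**
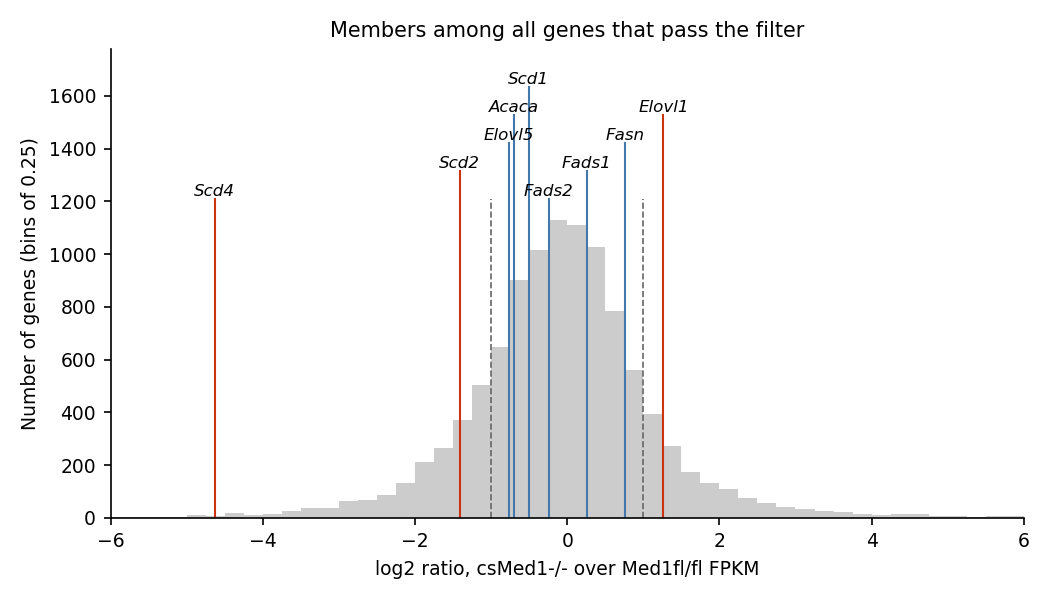
Histogram of log2 ratios (csMed1-/- over Med1fl/fl) of the 10489 genes that passed the filter, with the 9 members that passed marked as lines. Scd4 at -4.63 stands in the left tail and Elovl1 at 1.26 right of the centre, while the other members lie between -1.41 and 0.76. The axis leaves out 23 genes whose log2 ratio was beyond 6 in size.

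A further 49 genes of the pathway, listed by function, were all found and 41 passed the filter. Of these, 6 (14.6%) were higher by more than 2-fold and 9 (22.0%) were lower by more than 2-fold, against 13.6% and 18.0% of all genes, and their median log2 ratio was -0.03. Besides Acacb and Fads3, 6 other members of the ELOVL, FADS and Scd families (Scd3, Fads6, Elovl2, Elovl3, Elovl4 and Elovl7) were under 1 FPKM in both libraries. The partners that complete the elongation cycle counted 5 that passed. Of these only Tecr, the enoyl reductase of the last step, was past 2-fold, with 926 FPKM in Med1fl/fl and 369 FPKM in csMed1-/- (log2 ratio -1.33).

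Desaturases draw electrons from NADH through cytochrome b5 reductase and cytochrome b5. Of 6 genes for this supply 1 (16.7%) was higher and 1 (16.7%) lower by more than 2-fold, against 13.6% and 18.0% of all genes. Cyb5r3, the main membrane-bound reductase, was 31.2 FPKM in Med1fl/fl and 106.0 FPKM in csMed1-/- (log2 ratio 1.76). Cyb5r2 was 1.05 FPKM in Med1fl/fl and 0.0878 FPKM in csMed1-/- (log2 ratio -3.58). It passed the filter only narrowly and through the Med1fl/fl value, and with 1 FPKM added to both values it was 1.88-fold lower, no longer past 2-fold. Cytochrome b5 itself (Cyb5) was 52.9 FPKM in Med1fl/fl and 28.4 FPKM in csMed1-/- (log2 ratio -0.90).

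For acetyl-CoA and NADPH, 2 of 10 genes (20%) were higher by more than 2-fold, against 13.6% of all genes. They were the citrate carrier Slc25a1 (7.83 and 20.9 FPKM in Med1fl/fl and csMed1-/-) and the pentose phosphate enzyme Pgd (29.1 and 73.4 FPKM). Another 3 (30%) were lower by more than 2-fold, against 18.0% of all genes. Mid1ip1, which promotes the assembly of active acetyl-CoA carboxylase, was 99.0 FPKM in Med1fl/fl and 12.1 FPKM in csMed1-/- (log2 ratio -3.03). Its relative Thrsp was 24.7 FPKM and 10.5 FPKM, and the NADPH-forming Idh1 was 9.47 FPKM and 2.18 FPKM. The malonyl-CoA decarboxylase Mlycd had the highest level of the list, 174 FPKM in Med1fl/fl and 146 FPKM in csMed1-/-.

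Mitochondria hold a separate fatty acid synthesis path, which serves the making of lipoic acid. Of its 7 genes 0 were higher and 2 (28.6%) were lower by more than 2-fold, against 13.6% and 18.0% of all genes. The 2 were the acyl carrier protein Ndufab1 (828 FPKM in Med1fl/fl and 335 FPKM in csMed1-/-) and the reductase subunit Cbr4 (6.50 and 2.31 FPKM). Ndufab1 is also a subunit of respiratory complex I.

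Of 11 regulators of lipogenic genes that passed the filter, 2 (18.2%) were higher and 1 (9.09%) was lower by more than 2-fold. The shares of all genes were 13.6% and 18.0%. Srebf1, which encodes the sterol-regulated activator of Fasn and Scd genes, was 21.3 FPKM in Med1fl/fl and 22.6 FPKM in csMed1-/- (log2 ratio 0.08). Its escort protein Scap was 29.1 FPKM and 66.9 FPKM, and Nr1h3, the liver X receptor α gene, was 8.24 FPKM and 23.1 FPKM. Ppara, the gene of a receptor for fatty acids that uses Med1 as a coactivator, was 12.4 FPKM in Med1fl/fl and 1.66 FPKM in csMed1-/- (log2 ratio -2.90). Nr1h2 had the highest level of the list, 60.8 FPKM in Med1fl/fl and 103.3 FPKM in csMed1-/-.

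**Figure D4:**
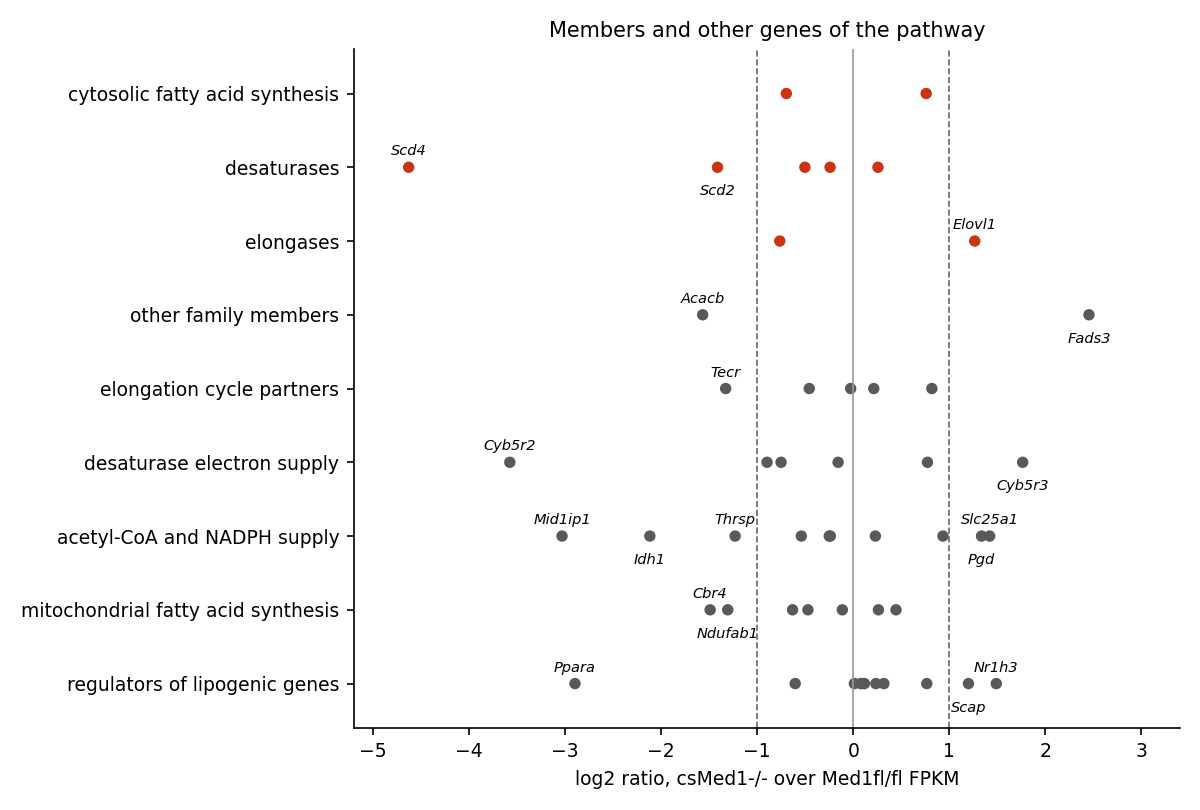
Log2 ratios (csMed1-/- over Med1fl/fl) of the members and of the other pathway genes that passed the filter, grouped by function, with 1 point per gene and lines at 2-fold. Every group has points on both sides of 0, from Scd4 at -4.63 to Fads3 at 2.45.

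The promoter table (RefSeq, GRCm38.p6) held entries for 7 of the 10 members and none for Scd1, Scd2 and Fads1. A window ran from 250 bases before to 50 bases after the start. A CCAAT box, searched as CCAAT on both strands, was in windows of Elovl1, Elovl5 and Fasn, and in 37.4% of all 32851 promoters. No match was found in the members for the SREBP element (1.24% of all promoters) or for the direct repeat of the nuclear receptor site with a spacer of 1 base (0.0396%). The RefSeq start used for Scd4 lies 234 bases inside the GENCODE gene interval given above, that for Fads2 243 bases inside and that for Acaca 65766 bases inside, so most or all of these windows is not upstream of the gene as GENCODE places it. The 250 bases before the start are shown for Elovl1, the member with the highest level and the largest ratio, for its window whose start is the same in both annotations. They lie at chr4:118427843-118428092 (plus strand), and capitals mark the CCAAT box 35 bases before the start.
Elovl1: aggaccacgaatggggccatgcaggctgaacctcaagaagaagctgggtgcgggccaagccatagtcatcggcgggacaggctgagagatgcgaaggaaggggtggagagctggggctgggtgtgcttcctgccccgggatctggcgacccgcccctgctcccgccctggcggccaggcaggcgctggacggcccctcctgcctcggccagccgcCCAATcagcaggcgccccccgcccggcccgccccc

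The cell makeup of the samples was set beside these values. Of 8 cardiomyocyte markers 7 were among the rows analysed here. Actc1, a main actin of heart muscle, was listed at 0 in Med1fl/fl and at 9189 FPKM in csMed1-/-. In each direction 6 genes were listed at 0 in a library and at 100 FPKM or more in the other, so a 0 in these files may be a failed estimate and does not show that a transcript was absent. The other 6 markers summed to 50524 FPKM in Med1fl/fl and to 19699 FPKM in csMed1-/-, a ratio of 0.390. Lower values in csMed1-/- were found for 5, with ratios from 0.149 for Tnni3 to 0.699 for Ttn, and Nkx2-5 was higher with a ratio of 1.29. Past 2-fold, 3 (50%) were lower, Myl2, Tnni3 and Tnnt2, and 0 were higher, against 18.0% and 13.6% of all genes. The ratio of Scd4, 0.0404, was lower than that of each of the 6 markers, and that of Scd2, 0.375, lay within their range.

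Fat cells express many of these enzymes at high levels. Of 8 adipocyte markers, 6 were listed at 0 in Med1fl/fl and 3 in csMed1-/-, and 7 were under 1 FPKM in both, with Fabp4, which endothelial cells also express, at 182 and 143 FPKM. The defining markers Adipoq, Plin1 and Cidec were listed at 0 in Med1fl/fl, with the limit on such values given above, and stood at 0.0101, 0.00825 and 0.00872 FPKM in csMed1-/-. Brown adipocyte markers summed to 39.7 and 82.5 FPKM, almost all from Cidea (37.6 and 81.4 FPKM), while Ucp1 was listed at 0 in both.

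Fibroblast markers summed to 503 FPKM in Med1fl/fl and to 1193 FPKM in csMed1-/-. Of the 8, 4 (50%) were higher and 1 (12.5%) lower by more than 2-fold, against 13.6% and 18.0% of all genes. The 2 collagen genes Col1a1 (129 and 502 FPKM) and Col1a2 (95.7 and 314 FPKM) made up most of the higher sum. In all, 5 markers were higher and 3 were lower, namely Pdgfra (4.09 and 4.03 FPKM), Dcn (114 and 96.6 FPKM) and Lum (8.04 and 3.72 FPKM). Of 4 smooth muscle markers, 2 (50%) were higher by more than 2-fold, Cnn1 (4.32 and 622.4 FPKM) and Tagln (23.8 and 89.7 FPKM). The other 2 were lower, Acta2 (572.6 and 310.0 FPKM) and, by more than 2-fold (25%), Myh11 (3.68 and 1.79 FPKM). Their sum was 604 and 1024 FPKM with Cnn1 and 600.1 and 401.5 FPKM without it. Endothelial markers summed to 466 and 384 FPKM, macrophage markers to 131 and 164 FPKM and Schwann cell markers to 4.74 and 2.46 FPKM. Of the 6 endothelial markers 5 were lower, with Kdr (36.5 and 11.8 FPKM) and Tek (8.50 and 2.28 FPKM) past 2-fold (33.3%). The remaining 1, Egfl7 (103 and 140 FPKM), was higher. With 1 library per genotype, any gene higher in csMed1-/- is also higher in the library with the higher fibroblast sum. Likewise any gene lower in csMed1-/- is lower in the library with the lower cardiomyocyte sum, so such a match is fixed in advance. This holds for Elovl1, Fads3 and Fasn, which were higher, and for Scd2, Scd4 and Acacb, which were lower. The part of the cell makeup in these differences was not tested.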

How the data were processed

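Polyadenylated heart RNA, pooled from 5 mice per genotype, was read as 50 nt single-end directional reads. The authors used TopHat (v2.0.8b) for alignment to mm10, and Cufflinks (v2.1.1) with cuffdiff gave the FPKM of known genes that they deposited. The submitters' processing notes also name STAR 2.4.0h, Bowtie2 and DESeq2, in roles not given in the sources used here. FPKM of rows sharing a symbol (412 symbols) were summed, and ratios were taken without a pseudocount. With 1 library per genotype no test was run, and values of a gene have no error beside them. The members and gene lists were chosen with earlier results of these data known. The text names all members, each listed pathway gene past 2-fold and the highest of each list, and the highest or listed-at-0 cell type markers. Cyb5, Srebf1, other single markers and the family genes under 1 FPKM were named after their values were seen. Positions and shared words came from GENCODE M21 (GRCm38), promoters from RefSeq (GRCm38.p6). Reads behind a value were estimated from value steps in 2636 genes with a single transcript, with an assumed fragment length of 200 bases. The computation was tested on simulated data. Python 3.11.15, numpy 2.4.6, pandas 2.3.3, Biopython 1.88 and matplotlib 3.10.9 were used. Alternatives covered 12 settings of pseudocount, filter, scaling, row handling and threshold.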

Additional observations from a re-analysis of the deposited data

How the results depend on the processing

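No paired analysis was possible because each genotype is 1 pooled library. Under the 10 alternatives that give a ratio, no member that passed the filter changed direction, and of 83 member values recomputed 82 moved by less than 1.5-fold. The exception was Scd4 with 1 FPKM added to both values, where its log2 ratio was -3.14. Settings of filter and row handling cannot change the ratio of a member, since each stood on 1 row. Settings of scaling shift all log2 ratios alike. Most of this stability was therefore fixed in advance and says little about the precision of a ratio. Scaling both libraries to the same summed FPKM moved the median log2 ratio of all genes by 0.13. Of the other pathway genes, 9 lower by more than 2-fold became 8 with 1 FPKM added or with 1 FPKM required in both libraries, and 6 with 10 FPKM required in either. Without a minimum level, 2504 genes were higher and 3182 lower by more than 2-fold. With 1 FPKM required in both libraries, 7 members passed, as Scd4 and Acaca no longer did, and 1 was higher and 1 lower. Of the 9160 genes that passed, 1037 (11.3%) were higher and 1342 (14.7%) lower. With 10 FPKM required in either library, 4 members passed (Fasn, Scd4, Fads1 and Elovl1), 1 was higher and 1 lower, and their median log2 ratio turned to 0.51. Of the 5426 genes that passed, 821 (15.1%) were higher and 885 (16.3%) lower. At 1.5-fold, 2 members were higher and 4 lower, as were 2488 (23.7%) and 3120 (29.7%) of all genes. Of the other pathway genes, 10 were then higher and 13 lower. At 4-fold, 0 members were higher and 1 lower, as were 453 (4.32%) and 539 (5.14%) of all genes. Another 1 pathway gene was higher and 4 lower. The files hold no read counts, so the precision of a value rests on the rough read estimate, and the spread between hearts is unknown.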
